A study of Rattus norvegicus with 24 samples.

Results

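Liver RNA of rats that took cyclophosphamide was compared with that of rats given vehicle, both housed without wood sticks. The members were chosen by their labels alone, tissue liver and no wood stick, which gave 6 of the 24 arrays of the series: vehicle rats 1001, 1003 and 1005 and drug rats 2001, 2003 and 2005. All 6 were male wild type Sprague-Dawley rats aged 46 to 49 days. The drug rats received cyclophosphamide by mouth at 40 mg/kg/day for 5 days and the vehicle rats received vehicle for the same 5 days. The other 18 arrays hold liver of rats housed with wood sticks and spleen of both housings, again with 3 rats per group. Each array was hybridised with RNA of 1 organ of 1 rat on the Affymetrix Rat 230 2.0 design, so the replicates are animals. The interval between the last dose and necropsy is not given in the labels.

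Cyclophosphamide is an inactive prodrug that liver cytochrome P450 enzymes oxidise, and its phosphoramide mustard crosslinks DNA. Cells that divide, above all those of bone marrow and lymphoid tissue, are the most sensitive, whereas most hepatocytes of a young adult liver are not dividing. A liver sample also holds Kupffer cells, which are the resident macrophages, with sinusoidal endothelium, stellate cells, and the red and white cells of the blood in its vessels. Hepatocytes make hepcidin, the hormone encoded by Hamp that blocks iron export into plasma, and its transcription answers bone morphogenetic protein (BMP) signals and inflammation and is held down while red cell production is active.

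In these livers the haem synthesis gene Alas2 and genes of class II antigen presentation were lower after the drug. Alas2 was 10.1-fold lower, the class II invariant chain Cd74 6.07-fold lower and the class II chain RT1-Da 4.50-fold lower. Id1, a target of BMP signals, was 2.38-fold higher and the sterol synthesis enzyme Hsd17b7 1.95-fold higher. By limma, the adjusted p was under 0.05 for 15 of 12294 genes (0.122%), 5 of them higher (0.0407%) and 10 lower (0.0813%), while 1465 (11.9%) had an unadjusted p under 0.05, 558 higher and 907 lower. A gene was tested where each of both groups had at least 2 values.

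The liver array of rat 2003 stood apart from the rest. It had 6060 blank cells among 30980 probe sets, against 4924 to 5206 on the other arrays without wood, and its median intensity was 101 against 89.7 to 92.4. Its mean correlation with the other liver arrays was 0.847, where those of the other arrays without wood were 0.910 to 0.918. Over the 10799 genes with a value on all 12 liver arrays, 2003 lay outside the range of the other 11 for 41.26% of genes, 1884 above and 2572 below, against 10.27% to 18.36% for any other array. Without 2003 the number of genes past the threshold was 5, all lower, and none of the 5 rises was among them. The 5 were Alas2, Cd74, RT1-Da, Cfd and Zdhhc23, and the adjusted p of the other 10 rose to at most 0.0750, with the direction kept in all 15. In the fits that each left out 1 of the 6 rats, those 5 genes passed in all 6. Each of the other 10 passed in 1 to 3, with Trpc1, Xxylt1 and Pds5b tested in only 4 of these fits. All these fits also used the liver arrays with wood for the variance. In a fit of the 6 arrays alone only Alas2 passed (limma adjusted p = 0.0236). Cd74, RT1-Da, Cfd and Zdhhc23 did not pass there (limma adjusted p = 0.103 each). Values without 2003 are given beside some of the results below, and all other values include it.

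**Figure D1:**
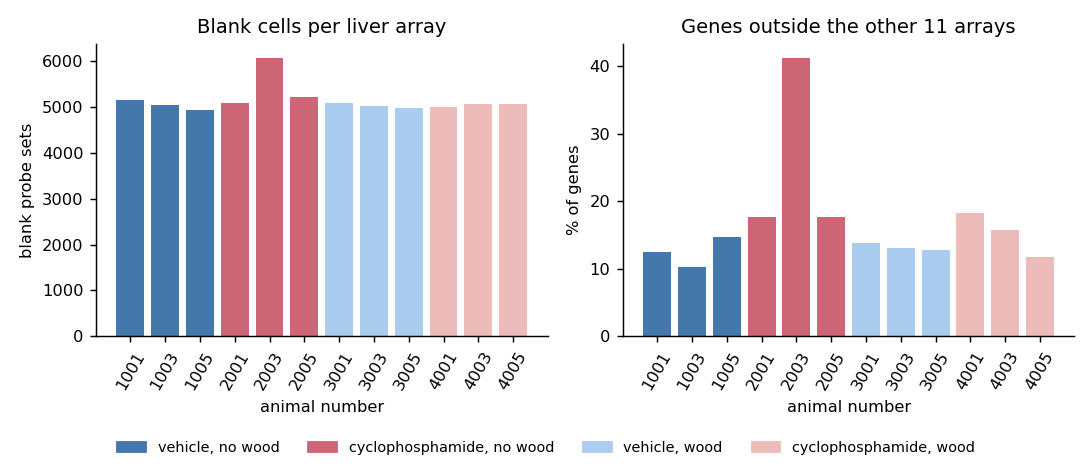
Bars show, for each of the 12 liver arrays by animal number, the blank probe sets (left) and the percentage of 10799 genes whose value lies outside the range of the other 11 liver arrays (right), coloured by group. The array of 2003 is the tallest bar in both panels, with 6060 blanks and 41.26% of genes.

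Promoters are printed for members of the groups that moved together and for Hamp, to show the letters near each start site. Sequences are those of RefSeq, build GRCr8, 250 bases before to 50 bases after the gene start, read 5′ to 3′ on the strand of the gene. Capitals mark TGATTGG or, on the other strand, CCAATCA, the core of the Y box that NF-Y binds in class II and sterol gene promoters. In Hamp they mark GGCGCC, a core of BMP response elements, which reads the same on both strands. RT1-Da lies at chr20:4515165-4515464 (+ strand) and RT1-Ba at chr20:4576807-4577106 (+ strand), with the motif starting 51 and 45 bases before the start. Hsd17b7 lies at chr13:84722705-84723004 (- strand) and Fdps, the farnesyl diphosphate synthase, at chr2:176804767-176805066 (- strand), with the motif starting 27 and 85 bases before the start. Hamp lies at chr1:95300222-95300521 (- strand), with its motif starting 129 bases before the start.
RT1-Da: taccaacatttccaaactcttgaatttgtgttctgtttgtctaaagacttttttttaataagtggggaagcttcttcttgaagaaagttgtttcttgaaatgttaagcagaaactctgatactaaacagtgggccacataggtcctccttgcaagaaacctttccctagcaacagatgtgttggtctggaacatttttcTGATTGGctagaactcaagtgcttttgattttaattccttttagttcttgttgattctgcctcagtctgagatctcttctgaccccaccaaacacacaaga
RT1-Ba: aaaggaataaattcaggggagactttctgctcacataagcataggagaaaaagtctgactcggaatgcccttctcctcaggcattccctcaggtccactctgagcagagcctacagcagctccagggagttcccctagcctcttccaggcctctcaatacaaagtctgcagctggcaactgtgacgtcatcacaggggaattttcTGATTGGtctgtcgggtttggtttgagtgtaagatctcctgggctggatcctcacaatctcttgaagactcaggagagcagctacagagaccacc
Hsd17b7: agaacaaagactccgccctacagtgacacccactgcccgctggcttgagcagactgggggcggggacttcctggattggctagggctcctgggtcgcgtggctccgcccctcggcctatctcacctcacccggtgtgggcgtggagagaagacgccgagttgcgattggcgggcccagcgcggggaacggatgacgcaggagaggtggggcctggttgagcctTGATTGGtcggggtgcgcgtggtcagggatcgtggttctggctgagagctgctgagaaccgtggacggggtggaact
Fdps: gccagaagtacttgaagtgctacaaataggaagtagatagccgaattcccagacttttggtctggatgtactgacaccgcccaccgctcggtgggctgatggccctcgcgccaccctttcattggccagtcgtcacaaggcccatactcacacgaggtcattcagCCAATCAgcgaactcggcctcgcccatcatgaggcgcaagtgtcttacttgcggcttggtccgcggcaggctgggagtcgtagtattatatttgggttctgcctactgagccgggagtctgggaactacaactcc
Hamp: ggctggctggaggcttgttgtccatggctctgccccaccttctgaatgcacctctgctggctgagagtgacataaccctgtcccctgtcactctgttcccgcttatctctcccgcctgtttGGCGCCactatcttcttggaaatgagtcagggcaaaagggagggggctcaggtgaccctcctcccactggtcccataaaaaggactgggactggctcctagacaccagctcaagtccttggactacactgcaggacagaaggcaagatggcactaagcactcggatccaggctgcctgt
The Y box core stood in 5 of the 7 promoters found for tested class II members and in 8 of 16 for tested cholesterol synthesis members, against 2364 of all 33469 promoters (7.06%). It stood in 2 of 15 promoters of macrophage members. GGCGCC stood in 3688 of all promoters (11%) and in those of Hamp, Tfrc and Smad7 among 12 of the iron list. A match is a string of letters in this window and not a measured binding site.

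A few red cell genes were far lower and most were not. Alas2, the enzyme that opens the haem pathway of young red cells, read 8.59, 8.22 and 8.43 on the log2 intensity scale in vehicle rats 1001, 1003 and 1005, and 4.94, 5.01 and 5.30 in drug rats 2001, 2003 and 2005; values of other genes are given in the same order. The groups lay far apart and the rats within each were close together. Alas2 fell by 3.33 ± 0.21 (SE; limma adjusted p = 0.000424), by 3.29 without 2003 (limma adjusted p = 0.00500), and it was the gene with the smallest p in the comparison. It passed in all 6 fits that left out 1 rat.

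The alpha globin Hba-a3 read 11.34, 10.85 and 11.20 in vehicle rats and 6.53, 7.74 and 5.57 in drug rats. The groups did not overlap, but the drug rats spread widely (SD 1.09 against 0.25). Its difference was −4.52 ± 0.79 (SE; limma adjusted p = 0.0845), which did not pass. The beta globin Hbb read 13.33, 13.16 and 13.22 in vehicle rats, was blank in 2001 and 2005 and read 1.5 in 2003, so it had too few drug values for a test. With wood, Hbb read 12.74 to 13.001 in vehicle rats and was blank in 2 of 3 drug rats. Bpgm, which makes the 2,3-bisphosphoglycerate that loosens oxygen from haemoglobin, read 7.85, 7.55 and 7.91 against 6.70, 4.31 and 6.60. Rat 2003 was lowest by a wide margin, and the difference moved from −1.90 to −1.12 without it, with neither passing.

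Of the 30 genes listed as erythroid, 24 were on the array and 18 were tested; 0 were higher and 1, Alas2, was lower in limma, with 5 lower and 1 higher at an unadjusted p under 0.05. In 5 of the 18 the drug rats lay below all vehicle rats, where the share over all tested genes was 10.2%, and in 1 above, where it was 7.69%. The median change was −0.37 against −0.03 over all genes, and 5 of the 18 changes were above 0. The members low in all 3 drug rats besides Alas2, Hba-a3 and Bpgm included the membrane adaptor Ank1, at 7.0, 6.82 and 6.70 against 5.86, 6.26 and 5.85. Over 5 defining markers of red cell precursors the summed intensity was 11317 to 13398 in vehicle rats and 102 to 283 in drug rats. Blanks counted as 0 in this sum, and 2 of the 5 markers had a value on all 6 arrays. In vehicle rats Hbb and Hba-a3 made up most of it, so it is no separate measure beside these globins. In RNA of a whole organ, fewer cells of a type and less RNA per cell cannot be told apart.

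Iron hormone RNA was high in every drug rat. Hamp read 9.83, 10.26 and 7.95 in vehicle rats and 13.40, 13.39 and 13.31 in drug rats. The vehicle rats differed widely from each other (SD 1.23) and the drug rats hardly at all (SD 0.05). The difference of 4.02 ± 1.03, a 16.2-fold higher mean, did not pass in limma (adjusted p = 0.184), with 4.01 without 2003 and 2.81 ± 1.03 with wood. Vehicle rats with wood read 7.79, 11.20 and 12.57 for Hamp. In drug rats without wood Hamp was about as bright as serum albumin, Alb (13.43, 13.32 and 13.13). Whether the top of the intensity scale limited the Hamp spread or fold was not tested. Id1, an inhibitor of basic helix-loop-helix factors that BMP signals induce beside hepcidin, read 6.93, 6.81 and 6.89 against 7.76, 8.27 and 8.34. Id1 rose by 1.25 ± 0.16 (SE; limma adjusted p = 0.0191), and by 1.18 without 2003 (limma adjusted p = 0.0648), past the threshold in 2 of the 6 fits that left out 1 rat.

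Of 17 tested genes of iron handling and the hepcidin pathway, 1 was higher and 0 lower in limma, and in 4 the drug rats lay above all vehicle rats (7.69% over all genes). The list median was 0.19. Without 2003 the count was 8 of 16 tested, where the share over all genes was 12.6%. The other members named with it changed little: Cp, the plasma ferroxidase ceruloplasmin, differed by 0.30 ± 0.10 (limma adjusted p = 0.299), and Fgl1, a secreted fibrinogen-like protein, by 0.23 ± 0.09 (limma adjusted p = 0.378).

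**Figure D2:**
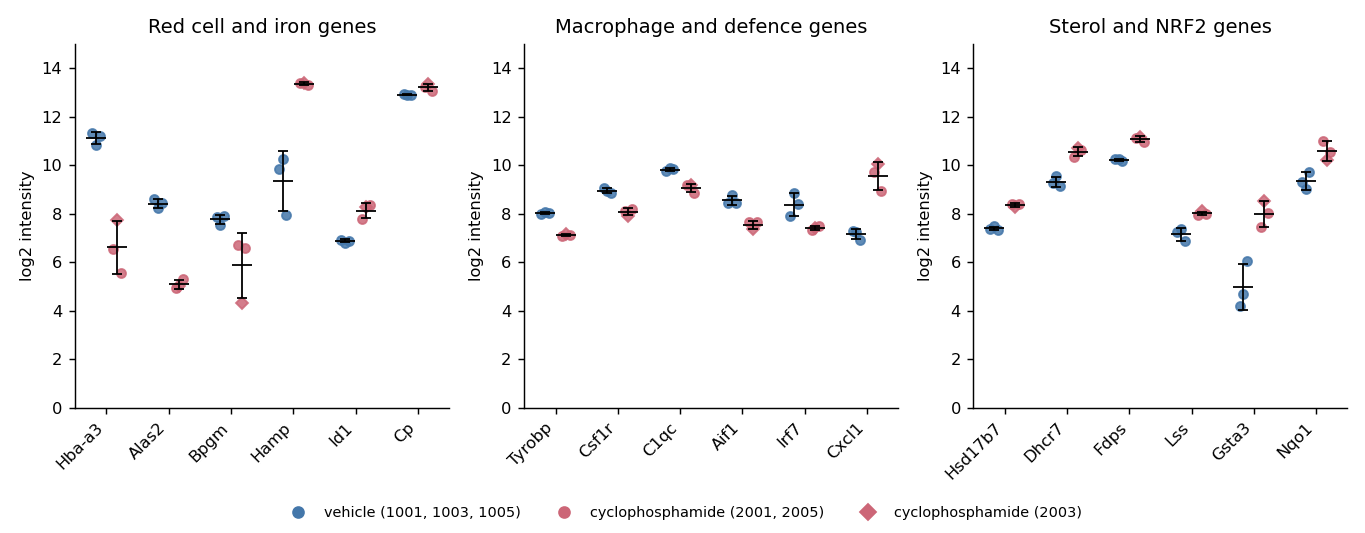
Points are single liver arrays without wood on the log2 intensity scale, with vehicle rats in blue, drug rats in red and 2003 as a diamond; black bars are the mean and SD of the values present. Hba-a3 and Alas2 lie lower and Hamp higher in all 3 drug rats, the 4 macrophage genes lie 0.75 to 1.0 log2 units lower, and the sterol genes lie higher.

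The invariant chain and 2 surface chains of class II antigen presentation fell. Cd74, the invariant chain that escorts class II dimers, read 10.57, 10.21 and 10.18 in vehicle rats and 7.38, 7.65 and 8.13 in drug rats. RT1-Da, an alpha chain of the rat class II D molecule, read 10.47, 10.46 and 10.14 against 7.88, 8.47 and 8.22. RT1-Ba, an alpha chain of the B molecule, read 9.40, 9.40 and 8.74 against 7.27, 6.72 and 7.48. In all 3 genes the highest drug rat lay more than 1 log2 unit below the lowest vehicle rat. Cd74 fell by 2.60 ± 0.21 (SE; limma adjusted p = 0.00213), RT1-Da by 2.17 ± 0.19 (limma adjusted p = 0.00252) and RT1-Ba by 2.02 ± 0.25 (limma adjusted p = 0.0191). Without 2003, RT1-Ba dropped by 1.80 and missed the threshold (limma adjusted p = 0.0648), while Cd74 and RT1-Da still passed. Another probe set of RT1-Ba was at −1.16 ± 0.44, and the mean of its probe sets, −1.59, did not pass (limma adjusted p = 0.0583).

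Of 9 class II genes tested, 0 were higher and 3 lower in limma, and 9 had changes below 0, against 53.7% of all genes. Drug rats lay below all vehicle rats in 7 of 9, with and without 2003, where the shares over all genes were 10.2% and 15.9%. The list median was −1.09, and −0.94 without 2003. RT1-Db1, a beta chain of the D molecule, was at −1.19 ± 0.23 (limma adjusted p = 0.114), between the 3 that fell and the rest. Of 16 MHC class I and immunoproteasome genes tested, 0 passed in limma, with 2 higher and 2 lower at an unadjusted p under 0.05. In 3 the drug rats lay above and in 3 below all vehicle rats, against 7.69% and 10.2% of all genes. The median was 0.06.

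Irf8, a transcription factor that macrophages, dendritic cells and B cells need, fell as well. It read 8.15, 8.18 and 8.11 against 6.40, 6.69 and 6.92, a fall of 1.48 ± 0.19 (SE; limma adjusted p = 0.0191). The vehicle rats were nearly equal, and drug rat 2001 was lowest. Il1b, the inflammatory cytokine that macrophages and granulocytes make, read 6.62, 6.36 and 6.23 against 3.84, 4.49 and 4.90, and fell by 2.00 ± 0.25 (limma adjusted p = 0.0191). Without 2003 the values were −1.49 for Irf8 and −2.04 for Il1b, both with a limma adjusted p of 0.0648.

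Most macrophage genes tested had lower values by a smaller step, none past the threshold. Tyrobp, an adaptor of activating receptors on myeloid cells, read 7.97, 8.06 and 8.03 in vehicle rats and 7.07, 7.15 and 7.12 in drug rats. Csf1r, the receptor that macrophages need to survive, read 9.05, 8.95 and 8.87 against 8.12, 7.92 and 8.19. C1qc, a chain of complement C1q, read 9.76, 9.87 and 9.84 against 9.17, 9.16 and 8.87, and Aif1 8.43, 8.76 and 8.45 against 7.64, 7.36 and 7.65. None of the 4 genes had overlapping groups, and none passed: the differences were −0.91, −0.88, −0.75 and −1.0, with limma adjusted p of 0.0845, 0.118, 0.119 and 0.145. The other probe set of Aif1 was at −0.21 ± 0.34.

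Of 19 Kupffer cell and macrophage genes tested, 0 passed in limma in either direction, and 14 were lower and 0 higher at an unadjusted p under 0.05, against 7.38% and 4.54% of all genes. Drug rats lay below all vehicle rats in 15 of 19, and in 17 of 19 without 2003, where the shares over all genes were 10.2% and 15.9%. The median was −0.82, and −0.80 without 2003. The summed intensity of 7 Kupffer cell markers was 5690 to 7492 in vehicle rats and 3576 to 4157 in drug rats. That of 5 hepatocyte markers was 47274 to 50586 and 47179 to 53479 and that of 4 endothelial markers 3391 to 3557 and 3323 to 3766. For 6 stellate cell and fibroblast markers it was 2823 to 4023 and 2175 to 2959. For 4 markers of natural killer (NK) cells it was 196 to 241 and 135 to 199. In these last sums the groups overlapped, and 2003 was the lowest drug rat. The summed B cell markers, of which 2 were on the array, were 54.5 to 80.5 in vehicle rats and 86.1, 166 and 79.0 in drug rats 2001, 2003 and 2005, with 1 of the 2 genes valued on all 6 arrays. Of 10 B cell genes tested 0 passed in limma, with 1 higher and 1 lower at an unadjusted p under 0.05, 3 changes above 0 and a median of −0.47 (−0.13 without 2003). Bank1, a B cell signalling adaptor, was at −0.51 ± 0.20. Some Kupffer markers, such as Csf1r, Cd68 and Cd163, are also members of the macrophage list, so their sum is no separate measure of it. The sum was lower along with the class II genes and Irf8, and its part in those results was not tested.

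Other white cell genes gave mixed values. Slfn4, a gene of myeloid cells, read 8.58, 9.47 and 9.09 against 7.42, 7.28 and 6.88, a difference of −1.85 ± 0.43 that did not pass (limma adjusted p = 0.151), and its other probe set stood at 0.35 ± 1.34. S100a9, a calcium-binding protein of neutrophils, was at 5.64, 3.64 and 5.82 against 2.24, blank and 3.18. Cxcr1, of the same granulocyte list, went the other way, at 5.27, 5.10 and 5.12 against 5.89, 5.85 and 5.96. Its difference of 0.74 ± 0.20 did not pass (limma adjusted p = 0.211). Among plasma cell genes, Jchain, which joins polymeric antibodies, read 7.20, 6.68 and 6.87 against 4.0, blank and 5.52, and Ighvl1 6.31, 6.07 and 6.16 against 4.44, 3.64 and 4.20. Neither passed (limma adjusted p of 0.228 and 0.165), and the other probe set of Jchain was at −0.34 ± 0.44. The summed markers of plasma cells were 217 to 260 in vehicle and 43.2 to 100 in drug rats. Tnfrsf17, the plasma cell receptor BCMA, was on the other side at 0.76 ± 0.23 (limma adjusted p = 0.247). The T cell markers Cd3d and Cd8a and the granulocyte marker Camp were blank on all 6 arrays. The 4 granulocyte markers summed to 32.2 to 80.6 in vehicle rats and 0 to 24.7 in drug rats. The 4 T cell markers summed to 141 to 285 and 146 to 186. Blanks counted as 0 in these sums. Of the granulocyte markers 0 had a value on all 6 arrays, and the drug sum of 0 was that of 2003. Of 10 granulocyte genes tested, 0 were higher and 1, Il1b, lower in limma, and 0 passed without 2003. At an unadjusted p under 0.05, 2 were higher and 3 lower, against 4.54% and 7.38% of all genes. In 4 the drug rats lay below and in 1 above all vehicle rats, against 10.2% and 7.69% of all genes. Of 15 T cell genes tested, 0 passed in limma and 0 had an unadjusted p under 0.05, with a median of 0.02.

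Prf1, the pore protein of killer cells, is a gene whose size of change rests on 2003. It read 5.82, 6.24 and 6.62 against 4.84, 0.35 and 5.07, so the difference of −2.81 ± 1.02 with 2003 became −1.27 without it. Rats 2001 and 2005 also lay below all vehicle rats, and the Prf1 change with wood was −1.38 ± 1.02. The chemokine Ccl5 likewise moved from −0.97 to −0.59, since 2003 read 6.57 and the other drug rats 7.68 and 7.76. Of 12 NK cell genes tested 0 passed in limma. At an unadjusted p under 0.05, 4 were lower and 0 higher, against 7.38% and 4.54% of all genes. In 3 the drug rats lay below and in 0 above all vehicle rats, against 10.2% and 7.69%. The median was −0.53, and −0.40 without 2003. With wood 6 of 12 lay below and 1 above, against 9.63% and 7.97%, with a median of −0.46.

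No gene of the interferon response passed. Of 24 tested, 0 passed in limma, with 7 lower and 0 higher at an unadjusted p under 0.05, against 7.38% and 4.54% of all genes, and 5 changes were above 0. The drug rats lay below all vehicle rats in 7 of 24, and in 7 of 23 without 2003, where the shares over all genes were 10.2% and 15.9%. Irf7, the factor that amplifies the response, read 7.89, 8.84 and 8.39 against 7.32, 7.41 and 7.5, a difference of −0.96 ± 0.32 (limma adjusted p = 0.292). The antiviral GTPases Mx2 and Mx1 were at −0.77 ± 0.28 (other probe set −0.22 ± 0.36) and −0.44 ± 0.16, and Gbp2 at −0.70 ± 0.24, none of them past the threshold. The list median was −0.38.

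Cxcl1, which draws neutrophils, ran the other way. It read 7.29, 7.27 and 6.93 in vehicle rats and 9.70, 10.03 and 8.92 in drug rats, with no overlap and a difference of 2.39 ± 0.38 (limma adjusted p = 0.0695). Without 2003 it was 2.15 (limma adjusted p = 0.139). The lymphocyte growth factor Il7 read 5.85, 6.10 and 5.77 against 6.69, 7.01 and 6.61, a difference of 0.87 ± 0.17 (limma adjusted p = 0.118). The chemokine Ccl6 was lower by value, at 10.69, 10.89 and 10.71 against 10.04, 10.08 and 9.86. Of 25 chemokine and cytokine genes tested, 1, Il1b, passed.

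Acute phase genes, which hepatocytes switch on in inflammation, had slightly higher values, none past the threshold. Of 25 tested, 0 passed in limma, 7 were higher and 0 lower at an unadjusted p under 0.05, against 4.54% and 7.38% of all genes, and in 12 the drug rats lay above all vehicle rats, against 7.69%. The median was 0.15, and 24 of 25 changes were above 0. Stat3, the factor that carries the interleukin 6 signal, read 9.62, 9.52 and 9.80 against 11.29, 10.86 and 10.44, a difference of 1.22 ± 0.29 (limma adjusted p = 0.157). Lbp, the endotoxin binding protein, read 10.98, 10.80 and 10.83 against 12.53, 11.81 and 11.32. Il1r1, the interleukin 1 receptor, read 9.82, 9.81 and 10.11 against 11.01, 11.49 and 10.54. In Stat3 and Lbp rat 2001 was highest and in Il1r1 2003 was highest. Neither Lbp (1.02 ± 0.26) nor Il1r1 (1.10 ± 0.29) passed, and the Il1r1 difference was 0.86 without 2003. Complement C5 was at 0.48 ± 0.10 (limma adjusted p = 0.118).

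Cfd, complement factor D, which starts the alternative pathway and is best known from fat cells, alone passed the threshold in the complement and coagulation list. It read 7.88, 7.78 and 7.80 against 6.44, 6.61 and 6.66. Both groups were tight, and Cfd fell by 1.25 ± 0.11 (SE; limma adjusted p = 0.00252) and by 1.27 without 2003 (limma adjusted p = 0.0123). Of 26 complement and coagulation genes tested, 0 were higher and 1, Cfd, lower in limma, although in 8 the drug rats lay above all vehicle rats, against 7.69% of all genes. The list median was 0.07, and 6 of the 26 changes were below 0.

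Most cholesterol synthesis genes tested had higher values, and 1 passed. Hsd17b7, the enzyme that reduces a sterol ketone late in the pathway, read 7.38, 7.47 and 7.34 in vehicle rats and 8.39, 8.28 and 8.41 in drug rats. Both groups were tight and wide apart, and Hsd17b7 rose by 0.96 ± 0.12 (SE; limma adjusted p = 0.0181). Without 2003 the difference was 1.0, with a limma adjusted p of 0.0579, and of the 6 fits that left out 1 rat only 1 passed. Its other probe set was at 0.63 ± 2.68, and the mean of both, 0.80, did not pass (limma adjusted p = 0.836). Dhcr7, the last enzyme of the pathway, read 9.25, 9.56 and 9.14 against 10.35, 10.69 and 10.64, a difference of 1.24 ± 0.19 (limma adjusted p = 0.0591). Fdps read 10.27, 10.24 and 10.17 against 11.14, 11.15 and 10.94, a difference of 0.85 ± 0.14 (limma adjusted p = 0.0766). Lss, which closes the sterol rings, read 7.24, 7.36 and 6.86 against 7.95, 8.09 and 7.99.

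Of the 20 genes of the pathway tested, 1 was higher and 0 lower in limma, and 12 were higher and 0 lower at an unadjusted p under 0.05. In 12 of 20 the drug rats lay above all vehicle rats (13 of 20 without 2003), where the shares over all genes were 7.69% and 12.6%. The median was 0.65, and 0.61 without 2003. Fatty acid synthesis genes had a median near that of all genes: of 23 genes tested 0 passed in limma (2 higher and 2 lower at an unadjusted p under 0.05), and the median was 0.08. Fasn, the fatty acid synthase, read 5.83, 6.97 and 6.46 against 7.77, 7.61 and 7.6, while Scd, which desaturates the products, read 8.54, 8.91 and 9.68 against 6.29, 7.83 and 7.67. Neither passed (limma adjusted p of 0.230 and 0.327). Thrsp, a protein tied to fat synthesis, read 10.33, 10.02 and 9.15 against 11.18, 11.49 and 11.67.

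Most fatty acid oxidation genes, targets of the receptor PPAR alpha that are active in fasting, had lower values, none past the threshold. Hadha, a subunit of the mitochondrial trifunctional enzyme, read 11.96, 11.87 and 12.08 against 11.52, 11.51 and 11.44. Cpt1a, which admits fatty acids to mitochondria, read 12.73, 12.53 and 12.87 against 12.28, 12.03 and 11.79, and Plin2, the coat of fat droplets, 12.22, 12.21 and 12.46 against 11.44, 11.57 and 11.27. The groups were apart in each of the 3 genes by less than 1 log2 unit, and none passed (limma adjusted p of 0.120, 0.187 and 0.207). Another probe set of Hadha stood at 0.15 ± 0.43, and the mean of its probe sets at −0.16 (limma adjusted p = 0.806). Ehhadh, a peroxisomal oxidation enzyme, was at −0.77 ± 0.21. Of 28 genes tested, 0 passed in limma, with 13 lower and 0 higher at an unadjusted p under 0.05, against 7.38% and 4.54% of all genes. Drug rats lay below all vehicle rats in 13 of 28, and in 17 of 27 without 2003, where the shares over all genes were 10.2% and 15.9%. The median was −0.45, and −0.50 without 2003. Food intake and body weight are not given in the labels.

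**Figure D3:**
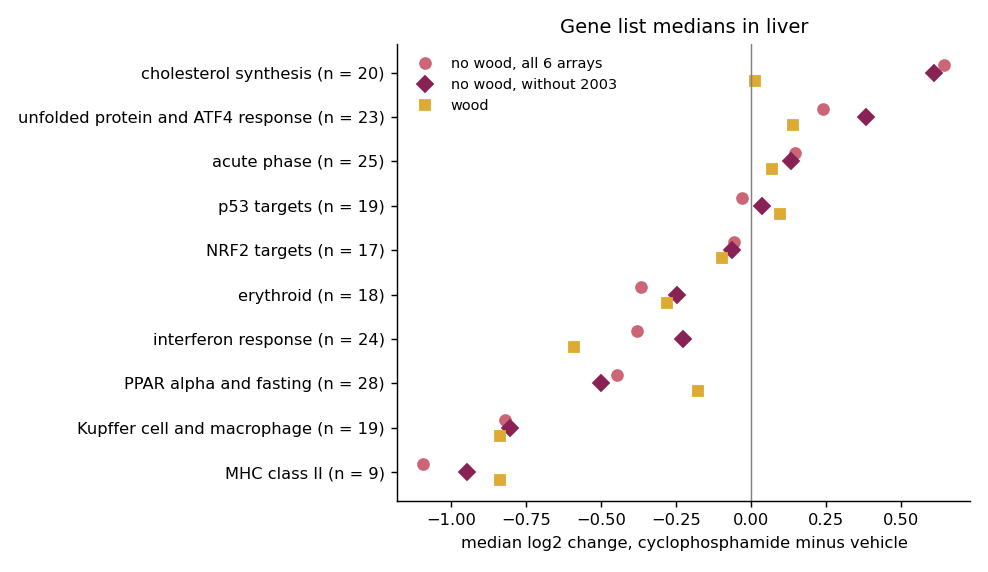
Each row is a gene list with its number of genes tested without wood, and points give the median log2 change of its members, drug minus vehicle, without wood on all 6 arrays, without wood leaving out 2003, and with wood. Cholesterol synthesis stands at 0.65 without wood and 0.02 with wood, while the class II and macrophage lists lie near or below −0.8 in both housings.

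Among hepatocyte genes, Alb, serum albumin, read 13.29, 13.19 and 13.38 against 13.43, 13.32 and 13.13, with overlapping groups and a difference of 0.007 ± 0.11. Of 18 hepatocyte identity genes tested 0 passed in limma and 0 had an unadjusted p under 0.05, with a median of 0.06.

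Of the genes that handle the drug, those of its activation had overlapping groups for the most part. Of 11 genes of its activation tested, P450 enzymes and their reductase, 0 passed in limma and 0 had an unadjusted p under 0.05, and the median was 0.00. Cyp2c11, the main male P450 of the rat, read 12.93, 12.96 and 12.84 against 12.90, 12.72 and 12.58, Cyp2b3 12.66, 12.92 and 12.73 against 12.58, 12.80 and 12.51, and Cyp3a2 12.94, 13.05 and 12.98 against 12.996, 13.11 and 12.85. The groups overlapped in each. Cyp2c6v1 alone of the named ones did not overlap, at 0.16 ± 0.08 (limma adjusted p = 0.480). Of 22 genes of aldehyde and mustard detoxification tested 0 passed in limma, with 3 higher and 3 lower at an unadjusted p under 0.05 and a median of 0.01. In 4 the drug rats lay above and in 3 below all vehicle rats, against 7.69% and 10.2% of all genes. Among them Gsta3, an alpha class glutathione transferase, read 4.19, 4.70 and 6.04 against 7.43, 8.51 and 8.01. Its difference of 3.01 ± 0.61 was the highest of its list but did not pass (limma adjusted p = 0.118). Nqo1, a quinone reductase under NRF2, read 9.30, 9.0 and 9.72 against 11.01, 10.21 and 10.56 (limma adjusted p = 0.172). Other NRF2 targets went the opposite way by value, with Gclm, a subunit of the enzyme that makes glutathione's precursor, at −0.47 ± 0.16 and Srxn1, a sulfiredoxin, at −1.23 ± 0.40. Of 17 NRF2 targets tested 0 passed in limma, and the median was −0.06. At an unadjusted p under 0.05, 2 were higher and 3 lower, against 4.54% and 7.38% of all genes. Aldh3a2, a fatty aldehyde dehydrogenase, was at −0.45 ± 0.15.

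No gene of the p53 response, which DNA damage sets off, passed. Ccng1, a p53 target, read 7.66, 7.59 and 7.88 against 9.01, 8.55 and 8.24, a difference of 0.89 ± 0.23 (limma adjusted p = 0.184). Cdkn1a, which stops the cell cycle, read 8.64, 8.84 and 9.20 against 9.54, 9.81 and 9.14, and Mdm2, which degrades p53, 8.07, 8.01 and 7.99 against 8.05, 8.48 and 8.15. Both overlapped, and the other probe sets of Mdm2 were at −0.42 ± 0.35 and −0.29 ± 0.49. Of 19 p53 targets tested 0 passed in limma, with 1 higher and 0 lower at an unadjusted p under 0.05, and the median was −0.03. Of 22 mitosis genes 0 passed in limma (1 higher and 0 lower at an unadjusted p under 0.05), and the median was 0.28. In 5 the drug rats lay above and in 0 below all vehicle rats, against 7.69% and 10.2% of all genes. Without 2003 these mitosis counts were 8 and 1, against 12.6% and 15.9%. Of 23 genes of the unfolded protein and ATF4 response 0 passed in limma. At an unadjusted p under 0.05, 4 were higher and 0 lower, against 4.54% and 7.38% of all genes. In 4 the drug rats lay above and in 0 below all vehicle rats, against 7.69% and 10.2%. The median of this list was 0.24. Sdf2l1, a chaperone partner of the endoplasmic reticulum, read 9.40, 9.44 and 9.36 against 11.34, 10.31 and 9.88, with rat 2001 far above the other drug rats. Manf, another secreted protein of that response, followed the same order among drug rats, at 11.98, 11.15 and 10.47.

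Bile acid and immediate early genes gave single values of interest. Slc27a5, which readies bile acids for conjugation, read 11.91, 11.88 and 11.86 against 12.55, 12.90 and 12.29, a difference of 0.70 ± 0.14 (limma adjusted p = 0.119) that was −0.03 with wood. Cyp7a1, the rate-limiting enzyme of bile acid synthesis, overlapped, at 8.23, 9.58 and 9.78 against 11.24, 9.78 and 9.76. Fos, an early response factor, read 5.08, 4.51 and 7.11 against 2.79, blank and 0.78, and Klf10, induced by TGF beta, 8.26, 8.20 and 8.26 against 5.42, 7.6 and 7.0. Neither passed (limma adjusted p of 0.158 and 0.251). Of stellate cell and endothelial genes 0 of 24 and 0 of 20 passed in limma. At an unadjusted p under 0.05, 4 and 2 were lower and 0 and 1 higher, against 7.38% and 4.54% of all genes. Pecam1, an endothelial junction protein, was at −0.29 ± 0.10 and the collagen chains Col1a1 and Col3a1 at −0.39 ± 0.15 and −0.41 ± 0.16, with another probe set of Col1a1 at −1.11 ± 0.48.

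The remaining genes past the threshold belong to no one group. Zdhhc23, a palmitoyl transferase, read 7.96, 8.18 and 8.50 against 6.09, 6.18 and 5.66, and fell by 2.24 ± 0.24 (SE; limma adjusted p = 0.0100). Pvt1, a long noncoding RNA beside Myc, read 8.45, 8.22 and 7.56 against 6.45, 5.74 and 5.86, and fell by 2.06 ± 0.27 (limma adjusted p = 0.0191). Pip4k2a, a lipid kinase, read 6.81, 6.58 and 6.68 against 5.72, 5.61 and 5.72, and fell by 1.01 ± 0.14 (limma adjusted p = 0.0230). Its other probe set was at −0.36 ± 0.18, and it did not pass as the mean of its probe sets (−0.68, limma adjusted p = 0.0928), with array weights (limma adjusted p = 0.0714) or with a trended, robust variance (limma adjusted p = 0.0728). All 3 had groups far apart for their spread. The lncRNA and the kinase lost their call without 2003 and Zdhhc23 kept it (limma adjusted p = 0.0357).

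Trpc1, Xxylt1 and Pds5b, with the 3 largest changes of the 5 genes that rose past the threshold, rest on vehicle values near the floor. Trpc1, a cation channel, read 2.41, blank and 2.01 against 4.75, 5.21 and 5.11. Xxylt1, which adds xylose to sugars on Notch, read 0.34, blank and 0.56 against 6.15, 5.02 and 4.78. Pds5b, a cohesin regulator, read blank, 2.98 and 4.92 against 7.64, 7.91 and 7.52. Each had 1 blank among the vehicle rats, which the fit leaves out, and the groups did not overlap. The changes were 2.81 ± 0.25, 4.87 ± 0.53 and 3.74 ± 0.45 (limma adjusted p of 0.0110, 0.0176 and 0.0191). With 16 added to each intensity and blanks at 0, which damps dim values, the changes were 1.36, 1.75 and 3.09, and Trpc1 and Xxylt1 did not pass (limma adjusted p of 0.146 and 0.0900). The mean of the probe sets with a full set of values put Pds5b at 0.34, its other probe sets reading 0.15 ± 0.43 and 0.52 ± 0.81. With wood, the vehicle rats read 4.58 for Trpc1, 5.48 for Xxylt1 and 7.20 for Pds5b on average. These means lie far above those of the vehicle rats without wood.

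**Figure D4:**
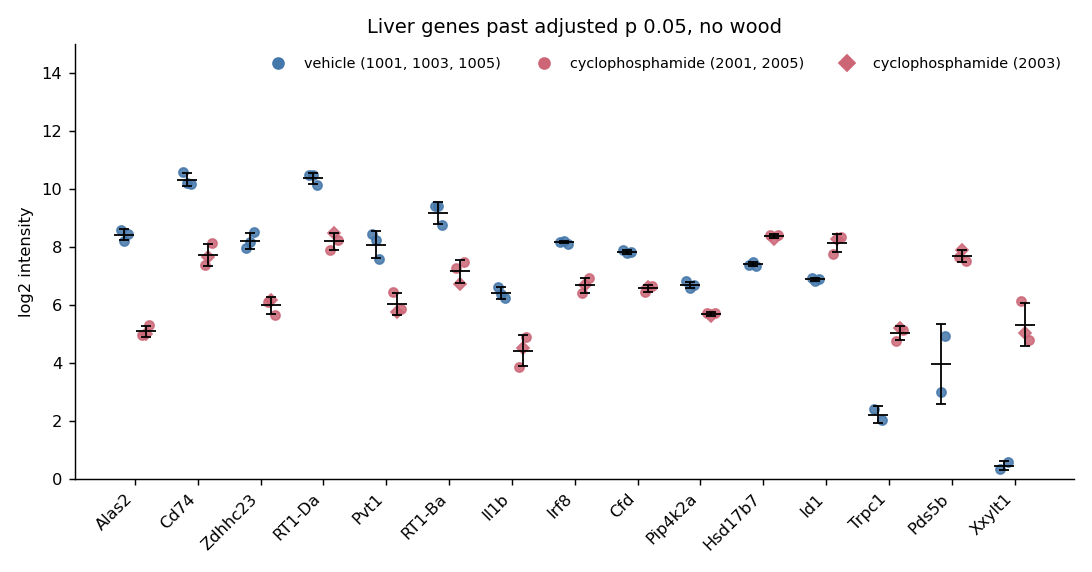
All 15 genes past an adjusted p of 0.05 are plotted in order of their change, one point per liver array without wood on the log2 intensity scale, with vehicle rats in blue, drug rats in red and 2003 as a diamond; black bars are the mean and SD of the values present. The 10 genes that fell stand on the left and the 5 that rose on the right, where the vehicle values of Trpc1, Pds5b and Xxylt1 are low and lack 1 rat.

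A further 37 genes had values in all 3 rats of only 1 group and none in the other, and could not be tested. Of these 22 had values only in drug rats, 8 of them with a mean level of at least 5, and 15 only in vehicle rats, 3 of them at that level. In 17 of the 22 the highest drug value was that of 2003. The brightest of each kind were Dxo, an RNA cap surveillance enzyme, at 6.80, 7.86 and 6.64 in drug rats, and Nim1k, a protein kinase, at 6.74, 6.92 and 6.29 in vehicle rats. Both had values in all 3 vehicle rats with wood.

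The same drug was tested in other rats with wood sticks, and these share no animal with the rats without wood. There, 5 of 12346 genes (0.0405%) passed in limma, all lower, and 974 (7.89%) had an unadjusted p under 0.05. Of the 15 genes above, 14 had the same sign with wood, 10 had the same sign and an unadjusted p under 0.05, and 5 passed the threshold there. Trpc1 had the opposite sign, also with an unadjusted p under 0.05 in limma. The change with wood was −3.23 for Alas2, −2.49 for Cd74, −2.19 for RT1-Da, −1.23 for Cfd and −1.52 for Irf8, each close to the value without wood. It was −0.29 for Zdhhc23, 0.50 for Xxylt1, 0.45 for Pds5b and −0.69 for Trpc1. Since the 15 were chosen on the rats without wood, smaller values in the other rats are a description only. For the difference of the drug effects between housings, limma called 0 of 12077 genes, and 566 (4.69%) had an unadjusted p under 0.05.

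The genes nearest to a housing difference were Trpc1, Xxylt1 and Acat2, with a change lower with wood, and Tom1l1, Zdhhc23 and Sdr39u1, with a change higher with wood. Their limma adjusted p for the difference ran from 0.151 to 0.436. Acat2, the acetyl-CoA transferase that feeds sterol synthesis, read 7.25, 6.92 and 6.83 against 7.70, 7.62 and 7.65 without wood and had a change of −0.74 ± 0.17 with wood. The vesicle adaptor Tom1l1 was at −0.76 ± 0.14 without and 0.68 ± 0.14 with wood, and Sdr39u1, a short-chain dehydrogenase, at −0.95 ± 0.36 and 1.98 ± 0.36, its other probe set standing at 0.49 ± 0.84 without wood.

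By list, the class II genes had drug rats below all vehicle rats in 8 of 9 with wood (median −0.84) and the macrophage genes in 14 of 19 (median −0.84), where the share over all genes was 9.63%. Cholesterol synthesis had drug rats above all vehicle rats in 1 of 20 with wood and below in 2 (median 0.02). The difference between housings lay below 0 in 18 of its 20 genes, against 47.9% of all genes, with a median of −0.68. No gene of this list passed for that difference, the limma adjusted p being 0.845 for Hsd17b7 and 0.766 for Fdps. PPAR alpha targets had drug rats below all vehicle rats in 6 of 27 with wood (median −0.18), and Cpt1a was at 0.01 ± 0.18 there. Interferon genes had 13 of 23 below with wood (median −0.59).

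**Figure D5:**
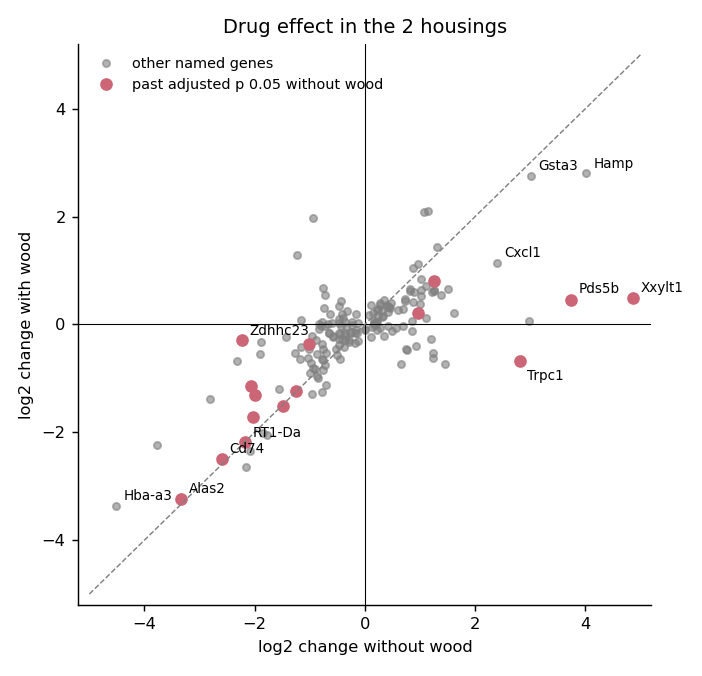
Each point is 1 of 178 named genes with a test in both housings, with its log2 change without wood on the horizontal and with wood on the vertical axis; the dashed line marks equal changes. Red points are the 15 genes past the threshold without wood, and Alas2, Cd74 and RT1-Da lie on the line while Trpc1, Xxylt1 and Pds5b lie far below it.

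In spleen of the same rats, limma called 4451 of 13492 genes (33.0%) for the drug without wood. The drug effect differed between liver and spleen for 2642 of 12091 genes (21.9%). The change was higher in liver for 1091 (9.02%) and lower for 1551 (12.8%). This fit did not pair the organs of a rat. With animal as a block, 2304 of 12043 genes passed. The spleen arrays without wood differed in blank cells, with 1778 to 1920 in vehicle rats and 1798 in drug rat 2005. Drug rats 2001 and 2003 had 1067 and 1021. This split goes partly with the drug, and its share in the spleen and organ results was not tested. Cd74 was at −0.15 and RT1-Da at −0.34 in spleen, neither past the threshold, and the difference between organs was −2.46 (limma adjusted p = 2.69e-06) and −1.83 (limma adjusted p = 2.93e-05). In 6 of 9 class II genes the change was lower in liver, in 1 higher. Among macrophage genes the change was lower in liver in 17 of 19, with a median of −0.82 in liver and 0.84 in spleen. Csf1r, for example, was at 0.95 in spleen (limma adjusted p = 5.33e-05). Alas2 fell in both organs, by 7.17 in spleen, so that its change was higher in liver by 3.84 (limma adjusted p = 2.69e-06), as it was for 12 of 18 erythroid genes. Fcgr2b, the inhibitory antibody receptor found on B cells and on liver sinusoidal endothelium, read 10.24, 10.25 and 10.18 against 10.39, 10.26 and 10.21 in liver and fell by 3.19 in spleen (limma adjusted p = 8.73e-10). The integrin chain Itgb5 and the membrane protein Tmem37 ran the opposite way, at −1.03 and −0.70 in liver and 1.24 and 1.79 in spleen. The other liver probe sets of Itgb5 were at −0.36 ± 0.32 and −0.66 ± 0.37.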

How the data were processed

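The authors deposited processed values of rat Affymetrix arrays as log10 intensity; the base was inferred from the spread of the values (2143-fold read as log10, 10.1-fold read as log2). Per the labels, 5 µg of RNA went to each array; the summary and scaling of probes are not given in the sources used here. Every value was converted to log2 without other scaling, and blanks (16.9% of cells on the 6 arrays, mostly dim) were left missing. Probe sets blank on 1 of the 6 had a median intensity of 19.7 on the rest, and all values one of 93.0.

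Of 30980 probe sets, 20792 name 1 gene, 436 several and 9752 none, giving 14201 genes, each by its brightest probe set over 24 arrays. limma 3.58.1 in R 4.3.3 fitted 4 group means to 12 liver arrays, and 8 to 24 arrays for the difference between organs. p-values were adjusted by Benjamini-Hochberg over all genes tested. SE comes from limma's moderated variance and SD from up to 3 arrays; the number of arrays limits the precision. The fit was checked on simulated data with known changes.

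Named genes are those past the threshold without overlap (up to 15 per direction), up to 4 members by p of each of 44 gene lists, 3 per direction by p for the housing and organ differences, the brightest 5 per direction with values in only 1 group, and Hbb, Hba-a3, Alas2, Cd74, RT1-Da, Gsta3, Cdkn1a, Mdm2, Cyp2c11, Cyp3a2 and Alb; not all of them are printed. The comparison, its members and the lists were chosen with earlier results of these data known, so lists are described by counts and medians only. A count of genes whose groups do not overlap means that all drug values lie on one side of all vehicle values. Liver and spleen of 1 rat share its number per the labels, and the correlation of their deviations from the group mean ran from −0.058 to 0.170 over 12 rats. No pair of arrays was identical. Alternatives were other offsets, scalings, filters, probe set rules and variance models, array weights, fits without each rat, and animals as blocks. The list counts without 2003 were added after the data were seen.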

Additional observations from a re-analysis of the deposited data

Results flagged for a closer look

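The drug effect differed between liver and spleen of the same rats, by limma's test of that difference (liver minus spleen, log2), for 13 of the 15 genes past the threshold in liver. That test did not pair the organs of a rat, and results per gene with animal as a block are not given here. The difference was above 0 for Alas2 (3.84), Trpc1 (2.53), Xxylt1 (3.98) and Pds5b (3.62). It was below 0 for Cd74 (−2.46), Cfd (−2.46), RT1-Da (−1.83), RT1-Ba (−1.52), Irf8 (−1.10), Il1b (−1.56), Pvt1 (−1.04), Zdhhc23 (−2.78) and Pip4k2a (−1.35). Only Hsd17b7 and Id1 of the 15 did not pass for the difference between organs. Genes named for this difference were Fcgr2b (3.26), Car2 (4.94) and Tspan33 (5.08), with a higher change in liver, and Itgb5 (−2.28), Tmem37 (−2.49) and Lgals8 (−1.41), with a lower one. Groups of 3 arrays were not tested for single outlying samples. Blank cells on the spleen arrays differed between rats, partly along with the drug, and their share in these differences was not tested.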

How the results depend on the processing

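The count of 15 genes past the threshold in liver became 1 in a fit of the 6 arrays alone and 0 in that fit without 2003 (limma; 1113 of 12033 genes at an unadjusted p under 0.05). It became 29 and 26 with 16 added to the intensities (blanks missing and blanks at 0), 40 with 64 added, 56 among genes at or above the median level and 39 with a trended, robust variance. Of the 15, 14, 13, 13, 6 and 13 were among these calls; genes below the median level could not be called in the fourth. Without 1 rat the count ran from 5 to 45, with 8 without 1001, 8 without 1005, 5 without 2003 and 45 without 2005. Calls were 33.3% higher ones in the main setting and 9.09% with the mean of a gene's probe sets (1 of 11). The housing difference had 0 calls in every setting run except 1 gene without 1003, and its range without 1 rat was 0 to 1. The organ difference, 2642 genes, ran from 1703 (without 1003) to 2914 without 1 rat, and was 2304 with animal as a replicate block. No paired analysis was possible for the liver comparison because its groups share no animal. The cause of these shifts was not tested, and other settings stayed within 1.5 times the main count.

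All 15 genes kept their sign in every setting that gave a value for the gene (single probe sets were counted only as calls). Of the other named genes, Cyp3a2 changed sign with median centring (0.028) and ran from −0.067 to 0.063 without 1 rat, and Mdm2 with the mean of its probe sets (−0.17). Alb, near 0 throughout, changed sign with quantile normalisation (−0.065) and in the 6 arrays without 2003 (−0.0076), and ran from −0.061 to 0.089 without 1 rat. With 3 rats a group and 16.9% of cells blank, dim genes are the least certain.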
